A study of Drosophila melanogaster with 36 samples.

Results

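Glia sorted from old brains with either of 2 driver lines, GMR56F03-GAL4 and GMR10E12-GAL4, were compared directly at day 70. The comparison uses 3 libraries of each line, 6 of the 36 libraries in the series. The members are set by their labels (driver line, age and sorting), and were chosen with earlier results of these data known. Both drivers are fragments of regulatory DNA placed before GAL4, a yeast activator that switches on a green fluorescent protein (GFP) reporter, and both are described as predominantly, not exclusively, active in ensheathing glia. The study followed glia of the Drosophila melanogaster brain with age. It sorted GFP-positive cells at day 5 and day 70, kept unsorted suspensions of the same brains as whole brain libraries, and used another driver, GMR86E01-GAL4, for astrocyte-like glia. All flies were females that carried a driver and the reporter, so no group here is free of GAL4 or GFP. A replicate was a pool of brains, each line was 1 transgene insertion, and the sort took whatever cells the driver had labelled and the dissociation had kept alive. The lines are written 56F03 and 10E12.

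Ensheathing glia line the neuropil, the synapse-rich core of the fly brain, and fold around axon tracts. They take up debris after injury through the receptor Draper. Other glial types lie close by: astrocyte-like glia send processes into the neuropil and clear transmitters, cortex glia wrap neuronal cell bodies, and perineurial and subperineurial glia form the blood-brain barrier beneath a basement membrane that hemocytes, the fly blood cells, help to lay down.

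The 6 libraries held between 5075174 and 7711950 counts. Ribosomal RNA genes took 3.84% to 4.17% of them in 56F03 and 5.02% to 5.54% in 10E12. Across the 8699 genes tested, the correlation of log expression was 0.934 to 0.948 between 56F03 libraries, 0.877 to 0.901 between 10E12 libraries and 0.822 to 0.854 between the lines. The 10E12 replicates were thus less alike than the 56F03 replicates. Of the whole brain libraries at day 70, 10E12 replicate 1 held 912285 counts and 56F03 replicate 2 held 1129952. Ribosomal RNA genes took 14.3% and 11.5% of the counts in replicates 1 and 3 of 10E12 whole brain, against 4.28% to 5.05% in the other 4 whole brain libraries of these lines at that age. Levels are CPM, counts scaled to library size, on a scale shared by all 36 libraries. A gene is said to be called at an adjusted p under 0.05 from edgeR (quasi-likelihood test, p-values adjusted after Benjamini and Hochberg over all genes tested), and each log2 difference is 56F03 minus 10E12, so that a negative value means a higher level in 10E12.

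Both sorted populations carried the glial and ensheathing markers. repo, the transcription factor that defines fly glia, was at 193, 218 and 201 CPM in 56F03 and at 172, 195 and 166 CPM in 10E12, and whole brain of the same flies lay between 38.5 and 60.1 CPM. The groups overlapped for repo, with a log2 difference of 0.17 ± 0.14 (SE, adjusted p = 0.496). Summed over 3 pan-glial markers (repo, nrv2 and Gs2), the level was 6985 to 7424 CPM in 56F03 and 3884 to 5723 CPM in 10E12, without overlap. Of these 3, 1 was called higher in 56F03, beside 5.22% of all genes, and none without any 1 of the 56F03 libraries. Summed over 5 ensheathing markers (Eaat2, CG9657, egr, sgl and drpr), the level was 1409, 1289 and 1326 CPM in 56F03 and 1246, 1198 and 933 CPM in 10E12, against 301 to 622 CPM in whole brain. Every sorted library was therefore above every whole brain library. Neuron markers, 15 genes in sum, were at 3134 to 3291 CPM in 56F03 and 2617 to 3906 CPM in 10E12 and at 10243 to 11793 CPM in whole brain. In bulk libraries of this kind, fewer cells of a type and less RNA per cell cannot be told apart.

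In the sorted cells at day 70, 1211 of 8699 genes were called (13.9%), 454 of them higher and 757 lower in 56F03, beside 2342 genes at an unadjusted p under 0.05. On the chosen scale 37.5% of the calls were higher in 56F03. That split depends on the scaling: with total counts as the scale, 1414 genes were called, 65.9% of them higher, and the median of all genes moved from 0.02 to 0.30, while a fit with all 36 libraries called 1246 with 55.0% higher. Changes are given relative to the first scale, so small differences, near 0.3, may take the other sign on the second. The median size of a called difference was 1.27 for genes higher and -1.23 for genes lower in 56F03, and 103 and 196 of them passed a 4-fold difference. Leaving out each library in turn gave from 585 to 1437 calls. The fewest were 585 without 56F03 replicate 2, 669 without 56F03 replicate 1 and 785 without 56F03 replicate 3, and 516 genes, 147 higher and 369 lower, were called in every such fit.

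**Figure D1:**
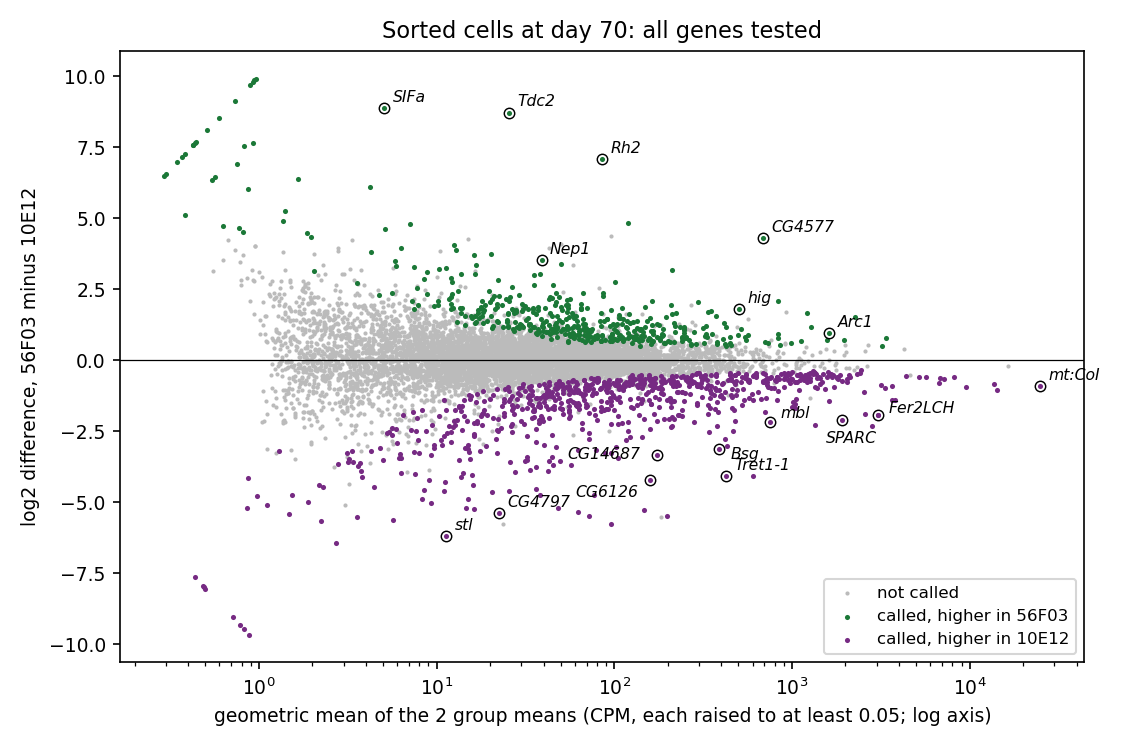
Log2 difference, 56F03 minus 10E12, against the geometric mean of the group means in CPM (log axis) for each of the 8699 genes tested in sorted cells at day 70, with called genes in green (454, higher in 56F03) and purple (757, higher in 10E12). Genes with no counts in one line form the streaks at the left, and Tdc2, Rh2 and SIFa stand apart at the top among genes with counts in both lines.

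The markers of perineurial glia, the outer cells of the blood-brain barrier, set the lines apart. Tret1-1, a trehalose transporter of these cells, was at 77.3, 148 and 87.3 CPM in 56F03 and at 1384, 1815 and 1986 CPM in 10E12. The log2 difference was -4.08 ± 0.28 (SE, n = 3 a line, edgeR adjusted p = 8.31e-05), and the lowest 10E12 library was far above the highest 56F03 library. CG6126, an organic solute carrier by sequence, was at 28.2, 49.2 and 33.6 CPM against 574, 697 and 773 CPM (-4.22 ± 0.25). CG4797, a sugar transporter by sequence, was at 5.34, 3.26 and 1.96 CPM against 135, 161 and 139 CPM, a difference of -5.40 ± 0.35 on the log2 scale. Indy, a citrate and dicarboxylate transporter, was at 67.7, 109 and 104 CPM against 389, 546 and 479 CPM (-2.36 ± 0.22). In each of these genes the lines did not overlap, which was also true of 3022 of all 8699 genes tested and of 1210 of the 1211 called. All 4 markers were called lower in 56F03, where 8.7% of all genes tested were, with a median of -4.15 beside 0.02 over all genes, and all 4 calls were kept in each fit that left out a library.

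The same 4 genes separated the lines at day 5, where 4.78% of 8407 genes were called, 1.4% higher and 3.38% lower in 56F03. Their sum was 97.1, 154 and 214 CPM in young 56F03 cells and 1443, 1456 and 1985 CPM in young 10E12 cells. In old cells it was 179, 310 and 226 CPM and 2481, 3219 and 3376 CPM. Whole brain of old flies showed no such split, with 97.9 to 205 CPM for 56F03 and 71.4 to 166 CPM for 10E12. The astrocyte line 86E01 at day 70 had 91.4, 499 and 367 CPM, so 10E12 alone of the 3 sorted lines held these transcripts above 500 CPM. Tested against whole brain, the sorted difference was larger for all 4, from -2.82 ± 0.41 for Indy to -4.97 ± 0.77 for CG4797, in a test of the interaction that called 2.29% of 9549 genes.

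**Figure D2:**
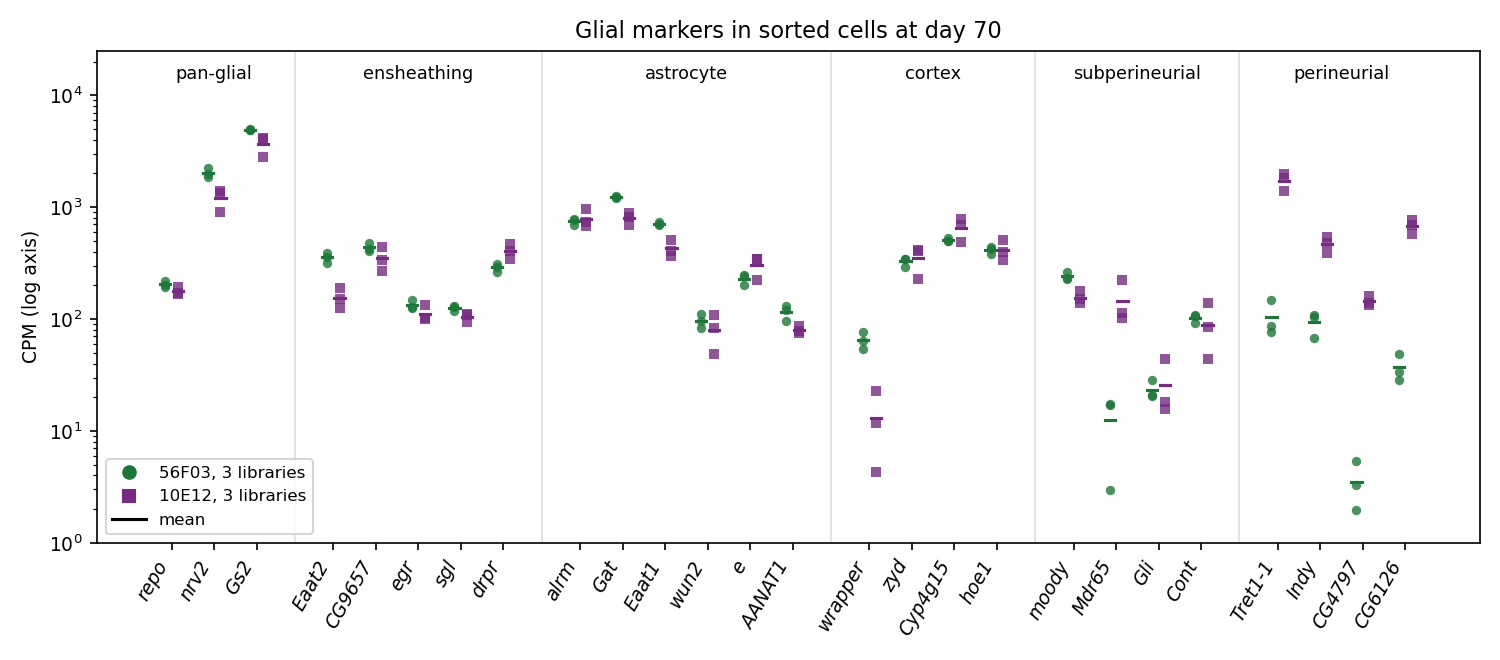
Level of each glial marker in CPM (log axis) in the 3 libraries of 56F03 (circles) and the 3 of 10E12 (squares) sorted at day 70, with group means as bars. The 4 perineurial markers and Mdr65 lie far higher in 10E12, Eaat2 and wrapper lie higher in 56F03, and repo, egr, sgl and alrm overlap.

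Subperineurial markers were mixed. Mdr65, an efflux transporter of the inner barrier cells, was at 17.2, 17.4 and 2.94 CPM in 56F03 and at 102, 224 and 113 CPM in 10E12 (log2 difference -3.57 ± 0.61, adjusted p = 0.00654), and the call was kept without any library. Its neighbour on chromosome arm 3L, the ABC transporter gene CG10226, was at 6.54, 12.9 and 4.2 CPM against 245, 327 and 305 CPM (-5.22 ± 0.40). Both genes lie head to tail on the same strand (dm6, CG10226 at positions 6234323 to 6240068 and Mdr65 at 6240500 to 6245746). moody, a receptor that the barrier needs, was higher in 56F03 at 264, 227 and 231 CPM against 176, 152 and 139 CPM (0.61 ± 0.15, adjusted p = 0.0299), but it lost the call in 5 of the 6 fits that left out a library, at an adjusted p of 0.128 without 56F03 replicate 1, 0.0869 and 0.0772 without 56F03 replicates 2 and 3, and 0.0793 and 0.0527 without 10E12 replicates 2 and 3. Gli and Cont, septate junction proteins, overlapped between the lines.

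Of the 5 ensheathing markers, Eaat2, a transporter of taurine, was the 1 called. It was at 390, 362 and 315 CPM in 56F03 and at 189, 150 and 125 CPM in 10E12, with no overlap (1.18 ± 0.18, adjusted p = 0.00392). At day 5 it was again called, at 0.82. The other 4 had differences of -0.51 to 0.31 and were not called, and egr, the fly tumor necrosis factor, gave 0.23 ± 0.18. The list stood at 1 of 5 called higher beside 5.22% of all genes.

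The astrocyte marker alrm was at 700, 768 and 780 CPM in 56F03 and at 741, 959 and 675 CPM in 10E12, against 2089, 1239 and 1975 CPM in the old 86E01 libraries. The 2 ensheathing lines overlapped and both lay below the astrocyte line. Gat, the GABA transporter, was higher in 56F03 at 1228, 1205 and 1260 CPM against 887, 822 and 686 CPM (0.60 ± 0.11, adjusted p = 0.0103). Eaat1, the main glutamate transporter of astrocytes, was at 714, 736 and 690 CPM against 409, 506 and 367 CPM (0.71 ± 0.14, adjusted p = 0.0121), and its adjusted p was 0.0603 without 56F03 replicate 2. The cortex glia marker wrapper, an immunoglobulin protein, was at 63.7, 77.3 and 54.2 CPM against 11.8, 22.8 and 4.27 CPM (2.30 ± 0.51, adjusted p = 0.019). It missed the threshold without 56F03 replicate 1 (0.0643), 56F03 replicate 2 (0.0801) and 10E12 replicate 1 (0.0531). The other 3 cortex markers overlapped.

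Among the genes with the smallest p, Bsg, the basigin homologue that escorts monocarboxylate transporters to the membrane, was at 117, 150 and 129 CPM in 56F03 and at 1117, 1254 and 1019 CPM in 10E12. With a log2 difference of -3.12 ± 0.15 (adjusted p = 2.16e-05), it was 8.7-fold lower in 56F03. hrm and kar, 2 monocarboxylate transporter genes, were lower in 56F03 by log2 differences of -1.29 ± 0.21 and -1.14 ± 0.19. With Bsg they were the 3 called members of 6 tested in that list, beside 8.7% of all genes called lower. The list median was -1.06, beside 0.02 over all genes. Cht2, a chitinase, was at 12.6, 11.5 and 9.24 CPM against 162, 145 and 182 CPM, and NaPi-III, a phosphate transporter, was at 205, 249 and 227 CPM against 1029, 960 and 1011 CPM. a10, a member of the chemosensory protein family, was at 188, 186 and 217 CPM against 1162, 1180 and 980 CPM (-2.52 ± 0.13). stl, a secreted protease of the ADAMTS family, had only 0.861, 2.08 and 0.98 CPM in 56F03 beside 115, 82.7 and 97.8 CPM in 10E12. Genes with the smallest p were taken from those whose lines did not overlap, so that separation was fixed by the choice.

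CG14687 and CG2082 have no role given here and were also among the genes with the smallest p, at 48.2 to 60.9 CPM against 536 to 578 CPM and at 140 to 170 CPM against 1137 to 1347 CPM. Reads of CG2082 may be undercounted, since it shares sequence with Sec8 on the same strand and reads over both were dropped. The same holds for Cp110, a centriole protein gene that overlaps l(1)G0196. It was at 13.9, 14.2 and 15.1 CPM in 56F03 and at 161, 171 and 172 CPM in 10E12 (-3.57 ± 0.18). mbl, a regulator of splicing, was at 346, 335 and 376 CPM against 1639, 1595 and 1540 CPM (-2.20 ± 0.10, adjusted p = 2.16e-05).

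In the other direction, Tdc2, the tyrosine decarboxylase that neurons use to make tyramine and octopamine, was at 692, 521 and 430 CPM in 56F03 and at 2.5, 0.172 and 0.928 CPM in 10E12. Its log2 difference was 8.71 ± 0.55 (adjusted p = 5.31e-05), while whole brain was at 16.8 to 43.4 CPM for 56F03 and 9.83 to 45.1 CPM for 10E12, with overlap. CG15909, whose end faces that of Tdc2 on chromosome arm 2R (positions 6683186 to 6684710 beside 6684745 to 6689974), was at 20, 15.2 and 9.8 CPM against 0, 0.172 and 0 CPM. With so few counts its ratio was 270.3, with a 95% counting interval of 48.1 to 10711. SIFa, a neuropeptide precursor, was at 115, 125 and 99.8 CPM in 56F03 and at 0, 0.686 and 0 CPM in 10E12. It was high in young 56F03 cells too (116, 77.1 and 137 CPM) and at 0 in all young 10E12 libraries, and in old 86E01 cells it was at 313, 0.773 and 0 CPM, so that it was high in 1 astrocyte library, low in another and at 0 in the last. Rh2, the opsin of the ocelli, was at 1211, 1202 and 601 CPM against 9.46, 5.49 and 6.87 CPM (7.08 ± 0.37). Whole brain levels of Rh2 ran from 285 to 954 CPM in 56F03 and from 291 to 4886 CPM in 10E12.

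CG4577 showed the most abundant difference of this kind. It was at 3398, 3157 and 2690 CPM in 56F03 and at 182, 103 and 177 CPM in 10E12 (4.30 ± 0.23, adjusted p = 3.53e-05). Young cells differed less, at 2246, 1596 and 1979 CPM against 326, 964 and 680 CPM. Nep1 and Nep2, neprilysins that cut peptides outside the cell, were higher in 56F03 by 3.52 ± 0.21 and 3.37 ± 0.24, with 120 to 152 CPM against 10.2 to 12.8 CPM and 135 to 180 CPM against 11.7 to 19.2 CPM. hig, a protein of the synaptic cleft, was at 964, 1004 and 865 CPM against 304, 250 and 247 CPM. Cpr72Ec, a cuticle protein by family, was at 476, 847 and 611 CPM against 17.8, 15.8 and 33 CPM, but in young cells the lines overlapped (8.17 to 212 CPM and 12.5 to 91 CPM).

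Some transcripts were detected in only 1 of the lines at day 70, and their differences are lower bounds set at 3 counts per library in the group at 0. The odorant co-receptor gene Ir76b, at 20, 18.5 and 17.4 CPM in 56F03, was at least 37.5-fold higher there. CG9313 was at least 36.0-fold, CG17777 at least 21.8-fold and the peptide genes FMRFa and CCAP at least 34.6-fold and 32.3-fold higher in 56F03. Among genes at 0 in the 56F03 libraries, Reepl1 (8.92 to 25.2 CPM in 10E12) was at least 35.1-fold, lncRNA:CR45582 at least 30.5-fold, CG15696 at least 27.6-fold and CG17669 at least 22.9-fold lower. Other large differences were CG15279 (0, 0.13 and 0.7 CPM against 26.6, 28.3 and 24.5 CPM) and Wnt10, a secreted signal (0.517, 0 and 0.42 CPM against 16.1, 13.2 and 18.7 CPM). The yolk protein gene Yp1 was at 5.34, 12.2 and 21.3 CPM in 56F03 and at 2061, 37.4 and 34.1 CPM in 10E12. Replicate 1 of 10E12 set this value: without it the adjusted p rose from 0.0473 to 0.111, and it was 0.172, 0.166 and 0.119 without 56F03 replicates 1, 2 and 3.

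Of 21 neuropeptide precursors tested, 8 were called higher in 56F03 and 1 lower, beside 5.22% and 8.7% of all genes, and 12 were not called, with a median of 1.66 against 0.02. Dh31, a diuretic hormone that also acts as a neuromodulator, was at 729, 596 and 613 CPM in 56F03 and at 37.2, 91.5 and 80.9 CPM in 10E12 (3.18 ± 0.32, adjusted p = 0.000692). At day 5 its lines overlapped, at 395, 702 and 524 CPM against 733, 154 and 486 CPM, and the difference was larger at day 70 (interaction 2.97 ± 0.62, adjusted p = 0.0447). That interaction lies close to the threshold, and its fits without a library are not given here. Nplp1, another peptide precursor, was at 131, 168 and 153 CPM against 46.9, 47.5 and 46.6 CPM. Dh44, a corticotropin-releasing-factor-like hormone, was at 82, 90.6 and 76.1 CPM against 22, 38.9 and 22.1 CPM. These 3 genes, with SIFa, CCAP and FMRFa, kept the call without any library. The ion transport peptide gene ITP was the exception, at 39.8, 46.4 and 64.1 CPM against 164, 174 and 151 CPM (-1.73 ± 0.21, adjusted p = 0.00147). AstC was called at 0.013 and gave 0.0502 and 0.0512 without 56F03 replicates 1 and 3, and sNPF was called at 0.0236 and gave 0.0633 to 0.0845 without each 56F03 library and 0.0664 without 10E12 replicate 2.

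The peptide sum was 2822, 3280 and 3706 CPM in 56F03, 1499, 642 and 881 CPM in 10E12, 4594, 2132 and 3180 CPM in 86E01 and 4332 to 8621 CPM in whole brain. Old 10E12 cells were therefore the lowest of these groups. General neuron markers had a list median of 0.37, beside 0.02 over all genes, and 3 of 15 were called higher and 1 lower, beside 5.22% and 8.7%. The GABA genes Gad1 and Rdl and the vesicle gene Rab3 were called higher and the complexin gene cpx lower, each losing the call without at least 1 library (Rdl 0.0547 without 56F03 replicate 3; Gad1 0.0892, 0.0645 and 0.0594 and Rab3 0.082, 0.0908 and 0.0696 without 56F03 replicates 2 and 3 and 10E12 replicate 2; cpx 0.0619 to 0.138 without all but 10E12 replicate 3). The part of neuronal transcripts in the peptide differences was not tested.

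**Figure D3:**
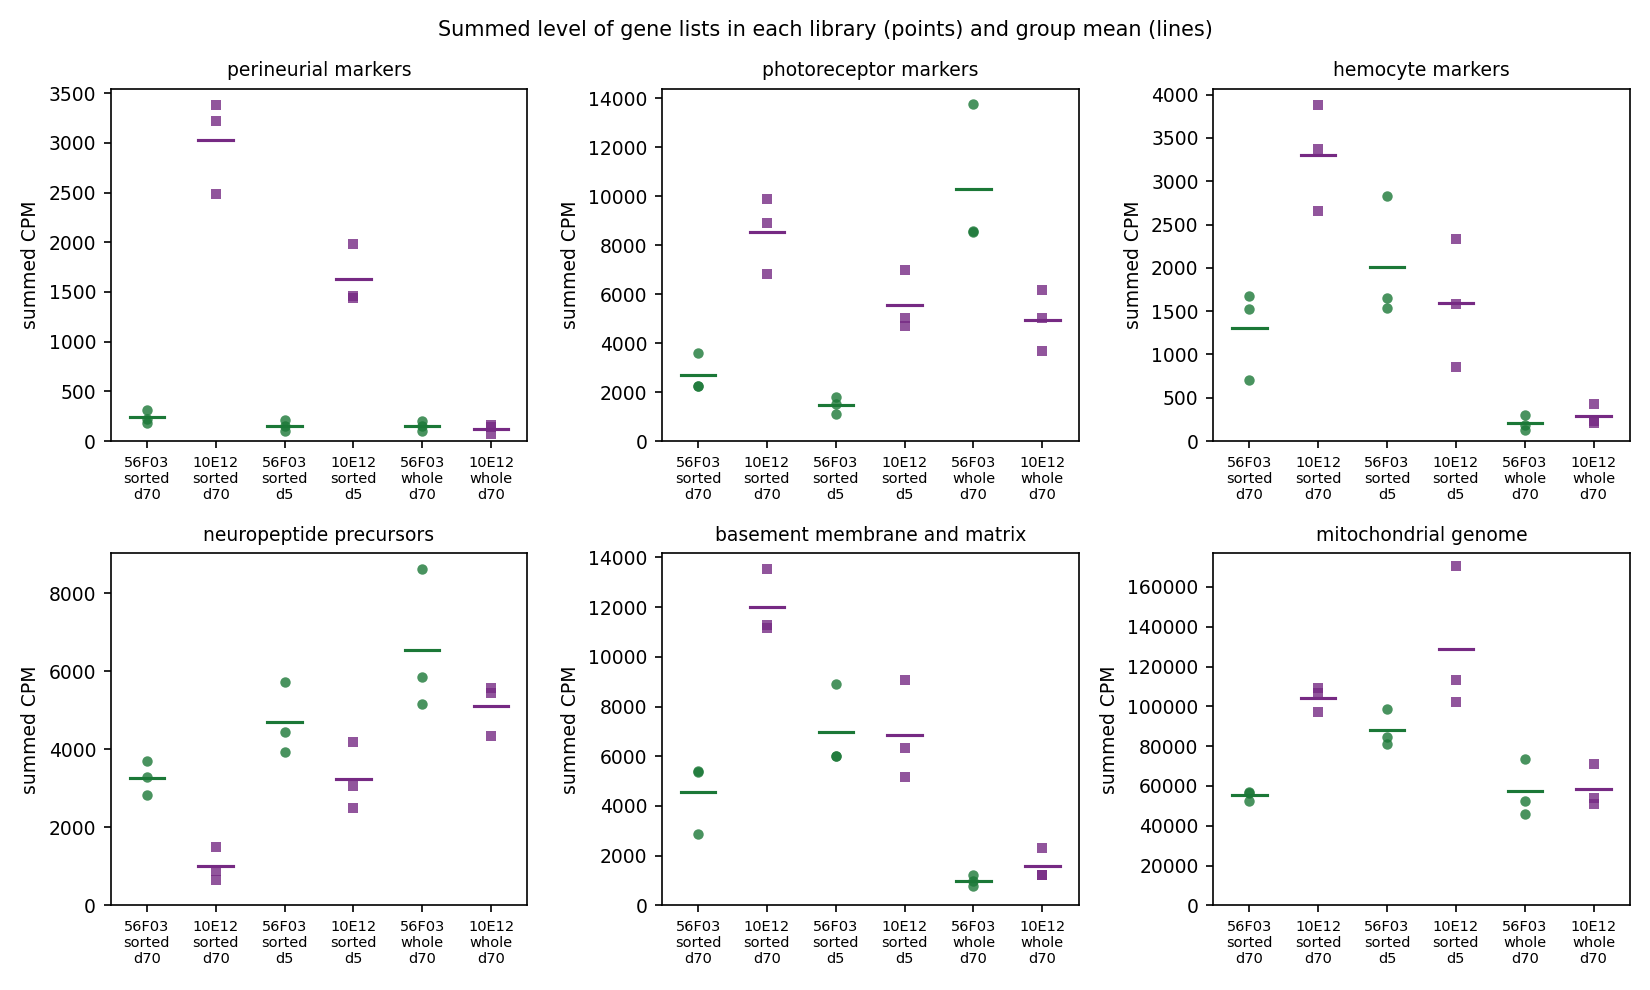
Summed level in CPM of 6 gene lists in each of 3 libraries per group (points) with the group mean (line), for sorted cells at day 70 and day 5 and for whole brain at day 70. Perineurial markers are high only in sorted 10E12 cells, at 2481 to 3376 CPM in old and 1443 to 1985 CPM in young, while hemocyte and basement membrane sums separate the lines at day 70 and overlap at day 5.

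Of 13 photoreceptor genes in a list that does not hold Rh2, 6 were called lower in 56F03, beside 8.7% of all genes, none were called higher and 7 were not called (median -1.03, with 4 above 0). The ocellar opsin Rh2 went the other way. ninaE, the main rhodopsin of the eye, was at 1764, 826 and 1234 CPM in 56F03 and at 7375, 4776 and 6619 CPM in 10E12 (-2.32 ± 0.27, adjusted p = 0.00123). Rh4, an ultraviolet opsin, was at 17.7, 10.4 and 20.2 CPM against 220, 227 and 165 CPM, and the scaffold gene inaD was at 19.8, 19.3 and 24.1 CPM against 266, 140 and 154 CPM. For these genes the groups were far apart and each call held without any library, as for Rh3. Other genes of the phototransduction pathway gave no call, among them ninaC (0.55 ± 0.37), inaC (0.15 ± 0.31), trpl (0.22 ± 0.59) and norpA (-0.09 ± 0.16). Arr1 and rdgA were called, but Arr1 had an adjusted p of 0.113, 0.0767 and 0.0687 without 56F03 replicate 2 and 10E12 replicates 1 and 2, and rdgA 0.062 and 0.0574 without 56F03 replicates 1 and 3. Whole brain had the opposite order, with a sum of 8531 to 13754 CPM in 56F03 and 3701 to 6189 CPM in 10E12 and a list median of 1.07, although no gene was called there. Against whole brain, the interaction was called for 4 of 13, beside 2.29% of all genes, with a list median of -2.13. The share of eye tissue or free photoreceptor RNA in these libraries was not tested.

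Some hemocyte markers and basement membrane genes were called lower in old 56F03 cells than in old 10E12 cells. Hml, hemolectin, was at 322, 684 and 825 CPM in 56F03 and at 1831, 1880 and 1312 CPM in 10E12 (-1.48 ± 0.31, adjusted p = 0.0147). It gave 0.0531 and 0.0585 without 56F03 replicate 2 and 10E12 replicate 2. Of 7 hemocyte markers 4 were called lower in 56F03, beside 8.7% of all genes, and none higher (median -1.45), and between 1 and 4 were called when a library was left out, with 1 without 56F03 replicate 2 and 1 without 10E12 replicate 2. Pxn, peroxidasin, was the member called in all of these fits, at 174, 273 and 218 CPM against 416, 473 and 388 CPM (-0.96 ± 0.18). Summed over the list the lines stood at 708 to 1678 CPM and 2659 to 3877 CPM.

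SPARC, a collagen chaperone of the basement membrane, was at 605, 1236 and 934 CPM in 56F03 and at 3777, 4417 and 3709 CPM in 10E12. The difference of -2.13 ± 0.23 (adjusted p = 0.000896) held without any library, as did those of Ppn, papilin (-1.46 ± 0.26), and Timp, an inhibitor of matrix proteases (-0.97 ± 0.14). Of 12 matrix genes, 6 were called lower, beside 8.7% of all genes, and none higher (median -1.25), with 4 to 7 called as libraries were left out. The collagen IV gene vkg and the laminin gene LanA were called at 0.0381 and 0.0227, and both missed the threshold without 56F03 replicate 2 (0.0725 and 0.0888) and without 10E12 replicate 2 (0.115 and 0.0737), vkg also without replicate 3 of 56F03 (0.0626) and of 10E12 (0.067). Whichever library was left out, no member was called higher. At day 5 neither list had a call, with medians of 0.25 for hemocytes and 0.09 for the matrix list, and the interaction with age was called for SPARC (-1.80 ± 0.37, adjusted p = 0.0446). This SPARC value is also close to the threshold, without fits that leave out a library given here. Pxn is in both lists, and the part of hemocyte transcripts in the matrix differences was not tested.

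The ferritin genes differed as well. Fer1HCH and Fer2LCH, the heavy and light chains of secreted ferritin, were at 1502, 1489 and 1733 CPM and at 1453, 1559 and 1711 CPM in 56F03. In 10E12 they were at 6043, 7770 and 4047 CPM and at 6380, 7329 and 4141 CPM, with both log2 differences at -1.94 and all 3 libraries above every 56F03 library. These genes overlap on opposite strands of chromosome arm 3R, and strand is not given for the counting in the sources used here, so the split of reads between them is uncertain. Young cells showed no such split, at 1153 to 1334 CPM against 1136 to 1507 CPM for Fer2LCH, whose difference grew with age (interaction -1.91 ± 0.26, adjusted p = 0.00429). GstS1, a glutathione S-transferase, was lower in 56F03 by -1.49 ± 0.23. In the iron and antioxidant list 6 of 14 were called lower, beside 8.7% of all genes, and none higher (median -0.53). Without a library 3 to 7 were called lower, with 3 in each of the fits without 56F03 replicate 1, 56F03 replicate 2 and 10E12 replicate 2.

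The enzymes that break down GABA ran against the transporter that takes it up. Gabat, GABA transaminase, was at 663, 698 and 635 CPM in 56F03 and at 1529, 1696 and 1832 CPM in 10E12 (-1.37 ± 0.11, adjusted p = 0.000245), and Ssadh, which acts after it, was at 320, 359 and 320 CPM against 753, 1020 and 815 CPM. Both were lower while Gat and Eaat2 were higher, and these 4 held without any library. Gs2, glutamine synthetase, differed by 0.41 ± 0.13 and was not called. Of 12 engulfment genes, 2 were called lower, beside 8.7% of all genes, and none higher. The list showed no common direction, with 6 above and 6 below 0 and a median of -0.07. Among its members crq, a scavenger receptor for dying cells, was at 129, 183 and 213 CPM against 576, 726 and 644 CPM (-1.92 ± 0.20). drpr, the Draper receptor itself, was at 293, 265 and 309 CPM against 409, 467 and 341 CPM (-0.51 ± 0.15, adjusted p = 0.0556): its libraries did not overlap, but it was not called. pros, a transcription factor of neuropil glia, was at 505, 518 and 496 CPM against 272, 178 and 196 CPM (1.21 ± 0.17), with 496 to 518 CPM below the 742 to 1345 CPM of the astrocyte line.

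Among metabolic and detoxification families, 2 of 52 P450 genes were called higher, beside 5.22% of all genes, and 11 lower, beside 8.7%. Cyp6w1 was at 203, 156 and 231 CPM in 56F03 and at 46.8, 34.7 and 32.3 CPM in 10E12 (2.35 ± 0.22), and Cyp12c1 was at 3.27, 4.3 and 6.44 CPM against 50.4, 52.3 and 52.1 CPM (-3.48 ± 0.33). The list median of -0.22 turned to 0.06 with total counts as the scale, so no direction is given for the family. Between 6 and 10 of its members were called lower as libraries were left out, with 6 without 56F03 replicate 1 and 7 without each of 56F03 replicate 2 and 10E12 replicate 2. Nplp2, an apolipoprotein-like carrier, was at 31, 29.7 and 34.2 CPM in 56F03 and at 710, 166 and 161 CPM in 10E12 (-3.46 ± 0.57, adjusted p = 0.00545), while at day 5 its lines overlapped. Without 10E12 replicate 1, the library that also held 9532 CPM of fat body markers against 190 and 145 CPM in the others, the difference was -2.40 and still called. Lists for lipid droplets, glycolysis, autophagy and immediate early genes each had 2 or fewer calls in a direction. Of all genes, 5.22% were called higher and 8.7% lower. None of the 17 genes of the tumor necrosis factor, Jun kinase and cell death list or of the 8 clock genes was called. With total counts as the scale, 3 of those 17 and 1 of the 8 clock genes were called higher.

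Of 15 heat shock genes, 2 were called higher in 56F03, beside 5.22% of all genes, and 6 lower, beside 8.7% (median -1.03). The lower calls fell to 3 without 56F03 replicate 2 and to 4 without each of 56F03 replicates 1 and 3. Within the list, the Hsp70 genes, chaperones induced by stress, divided by copy. Hsp70Bb was at 684, 567 and 553 CPM in 56F03 and at 164, 112 and 159 CPM in 10E12 (2.03 ± 0.18), whereas Hsp70Aa was at 43.2, 36.1 and 66.8 CPM against 251, 188 and 248 CPM (-2.26 ± 0.25). Copies of this family are nearly identical, so their reads can be split between them and each value is uncertain. The higher level of Hsp70Bb in 56F03 was also seen in young sorted cells (842 to 990 CPM against 151 to 177 CPM) and in whole brain (63 to 89.8 CPM against 3.76 to 25.6 CPM). stv, a co-chaperone of Hsp70 with a sequence of its own, was lower in 56F03 by -1.14 ± 0.15.

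Of 85 cytosolic ribosomal protein genes, 77 were called lower in 56F03, beside 8.7% of all genes, and none higher, with a median of -0.61 beside 0.02 over all genes. RpS18 was at 596, 590 and 522 CPM in 56F03 and at 1110, 1126 and 1107 CPM in 10E12 (-0.99 ± 0.11, adjusted p = 0.000848). The call count fell to 37 and the median to -0.33 with total counts as the scale, and to 20 in the fit with all 36 libraries. Leaving out a library gave 57 to 77. Summed over the family, 56F03 held 72943 to 77703 CPM and 10E12 held 109338 to 112837 CPM, and the lines did not overlap. Not one of the genes was called in the interaction with tissue or with age, beside 2.29% and 0.691% of all genes. Still, 79 of 86 were above 0 in the interaction with tissue (median 0.35). In the interaction with age, 83 of 85 were below 0 (median -0.32). At day 5 none of 84 was called, with a median of -0.23. Whole brain showed a median of -0.92 with no gene called, and its sums were 48370, 40004 and 50784 CPM in 56F03 and 108221, 53743 and 95208 CPM in 10E12. The high sums were those of 10E12 replicates 1 and 3, the libraries with 14.3% and 11.5% ribosomal RNA, while replicate 2 lay near 56F03, and the part of these libraries in the whole brain median was not tested.

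The 13 proteins encoded in mitochondrial DNA, all subunits of the respiratory chain or the ATP synthase, gave 12 calls lower, beside 8.7% of all genes, and none higher (median -1.01), and 12 in each fit that left out a library and 12 on the total count scale (median -0.73). mt:CoI, a subunit of cytochrome oxidase, was at 19090, 17458 and 18519 CPM in 56F03 and at 36106, 31388 and 34873 CPM in 10E12 (-0.92 ± 0.06, adjusted p = 8.48e-05). mt:ND1 was at 775, 781 and 752 CPM against 1439, 1437 and 1832 CPM. mt:ND4L, the least abundant of them at 17.7 and 31.3 CPM on average, was not called. The sum was 52640 to 56961 CPM against 97122 to 109206 CPM, while whole brain overlapped at 46033 to 73306 CPM and 51159 to 71132 CPM. Old 86E01 cells were at 69093 to 114461 CPM. At day 5 none of the 13 was called, but all 13 were below 0, with a median of -0.50. Their sums were then 81222 to 98758 CPM in 56F03 and 102106 to 170701 CPM in 10E12.

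Of the nuclear genes of the same complexes, 29 of 63 were called lower, beside 8.7% of all genes, and none higher, with a median of -0.54. Only 3 were called with total counts as the scale and 15 with all 36 libraries, and leaving out a library gave from 2 to 22, with 2 without 56F03 replicate 1, 5 without 56F03 replicate 3, 7 without 56F03 replicate 2, 12 without 10E12 replicate 2 and 14 without 10E12 replicate 1. Whole brain showed a similar median for these nuclear genes, -0.58, with no gene called. Its sums were 8360 to 9720 CPM in 56F03 and 13395, 10202 and 13126 CPM in 10E12. The interaction with tissue called none of 65, beside 2.29% of all genes, with a median of 0.05. In sorted cells the vacuolar proton pump gave 7 of 18 lower (1 without 56F03 replicate 2, 2 without 56F03 replicate 1, 3 without 10E12 replicate 2), mitochondrial ribosomal proteins 4 of 72 and the proteasome 2 of 32, the last close to or below the 8.7% of all genes.

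**Figure D4:**
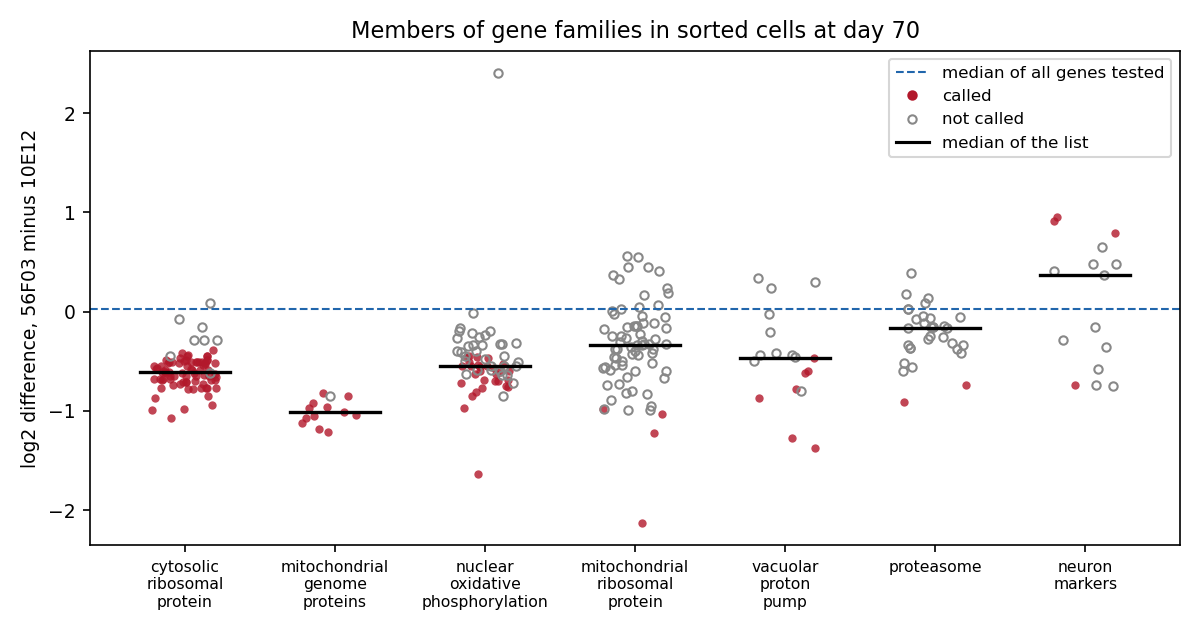
Log2 difference, 56F03 minus 10E12, of each tested member of 7 gene families in sorted cells at day 70 (points, filled where called), with the family median (black line) and the median of all genes tested (dashed line, 0.02). Cytosolic ribosomal protein genes cluster near -0.61 and mitochondrial genome proteins near -1.01, while most mitochondrial ribosomal protein and proteasome genes were not called.

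Across the genome the calls were spread over the nuclear chromosomes. The share of tested genes called was 14.0% on arm 2L, 14.5% on 2R, 13.8% on 3L, 14.2% on 3R, 15.3% on chromosome 4 and 12.0% on X, close to the 13.9% of all genes. The mitochondrial genome stood apart with 14 of 21 genes.

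Whole brain libraries of the same old flies gave no called gene of 8845 (0.0%) in edgeR's test, with 555 genes at an unadjusted p under 0.05 and 37 called by DESeq2. The median whole brain difference was 0.15 for the genes called higher and -0.31 for those called lower in sorted 56F03 cells. Testing the sorted difference against that of whole brain called 219 genes, 113 higher and 106 lower. With the replicate number within each line as a block, 127 were called. CG4577 (3.92 ± 0.34), Tdc2 (8.24 ± 0.88) and Nep2 (3.34 ± 0.37) led the higher genes with CG42750, which was at 115, 85.8 and 85.5 CPM in sorted 56F03 and 24.4, 19.4 and 18.6 CPM in sorted 10E12 cells and at 281 to 338 CPM in every whole brain library of both lines. Bsg, CG14687, CG10226 and CG4991 led the lower genes. CG4991, an amino acid transporter by sequence that overlaps CG16700 on the same strand, was at 9.47, 18.4 and 4.76 CPM against 340, 557 and 546 CPM in sorted cells and at 6.42 to 16.2 CPM in whole brain.

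At day 5 the lines differed in 402 of 8407 genes, 118 higher and 284 lower in 56F03. Of the genes called at day 70, 233 were called in the same direction at day 5 (71 higher and 162 lower), which is 19.2% of the old calls and 58.0% of the young calls. Of 1173 old calls tested at day 5, 976 had the same sign there, with medians of 0.43 and -0.36 in young cells. The share of all tested genes with the same sign at both ages was not counted, so no excess is read from this. The sets of libraries at the 2 ages have no sample in common. A test of the change in the line difference with age called 64 of 9265 genes (0.691%), 42 higher and 22 lower.

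Arc1, a capsid-forming relative of retroviral Gag, changed order between the ages. It was at 2349, 2324 and 2107 CPM in old 56F03 and at 1255, 1076 and 1151 CPM in old 10E12 cells, but at 22.6, 27.6 and 33.3 CPM in young 56F03 and at 143, 246 and 84.2 CPM in young 10E12 cells. Each of the 4 groups stood apart from the others (interaction 3.45 ± 0.41, adjusted p = 0.00223). CR10102, annotated as a pseudogene beside Arc1 on the same strand of arm 2R (positions 14360433 to 14361780, after Arc1 at 14357927 to 14360297), followed it at 3.62 ± 0.48. CHKov1, a kinase-like gene, also changed order, with 175 to 214 CPM against 62.2 to 90.9 CPM in old and 11.1 to 18.4 CPM against 37.5 to 50.1 CPM in young cells. CG3257 went from a difference of -0.36 at day 5 to 1.03 at day 70.

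In the other direction, Cp110 was at 6.91 to 21.6 CPM in young 56F03 and 7.93 to 9.56 CPM in young 10E12 cells, with overlap, and differed widely at day 70 (interaction -4.24 ± 0.42, adjusted p = 0.001). mbl was close at day 5 (121 to 167 CPM against 160 to 189 CPM) and 4.59-fold lower in 56F03 at day 70. NaPi-III was already lower at day 5 (-0.92) and more so at day 70, by -1.19 ± 0.18. The 4 perineurial markers, SIFa, Rh2, Nep2 and hig differed at both ages in the same direction, with no interaction called.

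**Figure D5:**
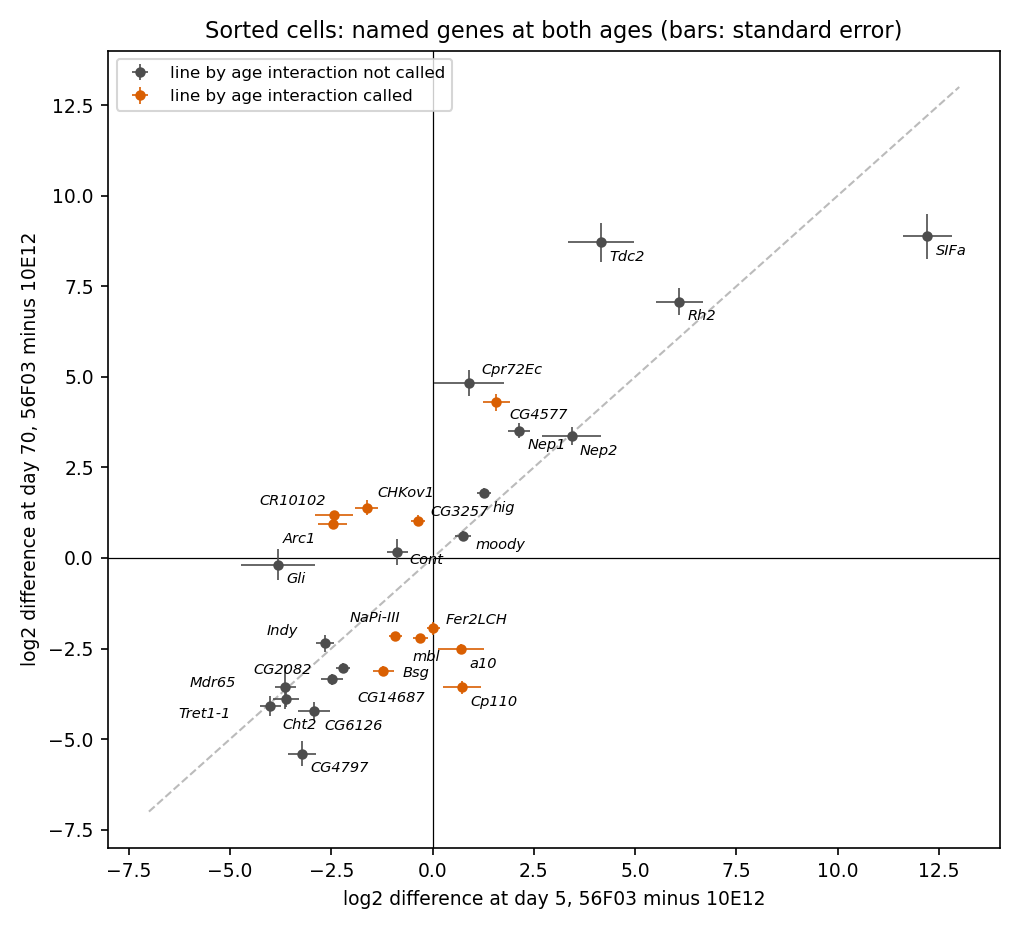
Log2 difference, 56F03 minus 10E12, at day 70 (vertical axis) against day 5 (horizontal axis) for named genes in sorted cells, with standard errors as bars and the dashed line marking equal values. Arc1, CR10102, CHKov1 and CG3257 lie above 0 at day 70 and below 0 at day 5, and Cp110 and Fer2LCH are low at day 70 only, while the day 5 value of SIFa was fitted against a group at 0 and is not a measured fold.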

How the data were processed

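RNA was measured by Smart-seq3 libraries from sorted cells and whole brain suspensions of female flies, 36 libraries in all with 3 replicates a group. Per the study's methods, the authors mapped reads with STAR 2.7.3a to dm6, removed improperly paired reads and deposited raw counts per gene, in which reads over more than 1 gene were dropped. Collapsing of molecular identifiers and the strand setting are not given in the sources used here. All 36 columns were matched to samples by name, and 17500 of 17562 genes were matched to the BDGP6 annotation, which supplied coordinates.

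The counts were tested with edgeR 4.0.16 in R 4.3.3 (quasi-likelihood test, TMM scaling, filterByExpr, Benjamini-Hochberg adjustment, threshold 0.05). Each comparison of lines used only its own 6 libraries, and each interaction its own 12. Standard errors are the size of the log2 difference over the root of the F value, and CPM used TMM factors over all libraries. The scripts were tested on simulated data. Alternatives were DESeq2 1.42.0, other scalings and filters, thinned counts, a fit over all libraries, a replicate block and leaving out each library.

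Genes were named by rule. Those with the smallest p, the largest log2 difference or the leading interactions were taken among genes whose lines did not overlap at a mean of at least 10 CPM. Called members of the lists were taken without that filter, and cell type markers whether called or not. The members and gene lists were chosen with earlier results of these data known. Replicates were separate pools of brains, and p-values measure the spread between these pools only. Intervals and 3-count floors cover counting error only. The unsorted suspensions came from the same brains as the sorted cells, but the sources used here do not tie replicate numbers across them, so the interaction with tissue was fitted without a block and the block is an alternative.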

Additional observations from a re-analysis of the deposited data

Results flagged for a closer look

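The difference between the lines was itself different in sorted cells and in whole brain for 219 genes (127 with the replicate number as a block) and at day 70 and day 5 for 64 genes, by edgeR tests of the interaction. Against whole brain, the sorted difference at day 70 was larger by 3.92 for CG4577, 8.24 for Tdc2, 3.34 for Nep2 and 2.41 for CG42750 on the log2 scale. In the other direction it was -2.80 for Bsg, -2.90 for CG14687, -4.87 for CG10226 and -5.54 for CG4991. Between the ages the difference rose by 3.45 for Arc1, 3.62 for its neighbour CR10102, 3.07 for CHKov1 and 1.43 for CG3257. It moved the other way for Cp110 (-4.24), Fer2LCH (-1.91), mbl (-1.85) and NaPi-III (-1.19). Each of these 16 genes was called in all 12 fits that left out a library of its test.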

How the results depend on the processing

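In old sorted cells the count of 1211 stayed within 1.5 times under every alternative with all 6 libraries, and leaving out a library gave 585 to 1437. In whole brain at day 70, where none was called, DESeq2 called 37 and the fit over all 36 libraries 204, and leaving out a library gave 0 to 1. At day 5 the 402 calls became 627 with DESeq2 and 655 without a filter, and 236 to 375 without a library. For the interaction with tissue, 219 became 494 with DESeq2, 407 in the fit over all libraries, 59 with counts thinned to the smallest library and 93 to 301 without a library. The interaction with age went from 64 to 295 with DESeq2, 257 without a filter and 22 to 141 without a library. The cause of these shifts was not tested. With the replicate number within a line as a replicate block the interaction with tissue called 127, and sorted and whole brain libraries of the same number correlated in their deviations at 0.13, 0.056 and 0.22 in 56F03 and at -0.0028, 0.024 and 0.0069 in 10E12. Between the lines, same-numbered libraries of old sorted cells correlated at -0.024, 0.0097 and -0.073, and those of young sorted cells at 0.020, 0.027 and -0.14. In old whole brain the values were 0.0013, 0.090 and 0.062. Not every library correlated best with its own number. With 3 libraries a line, these values cannot decide whether the numbers mark a shared batch. The replicate block then gave 837 calls in old sorted, 303 in young sorted and 0 in whole brain libraries, and 45 for age. The shallowest whole brain libraries at day 70, 10E12 replicate 1 and 56F03 replicate 2, held 912285 and 1129952 counts. Ribosomal RNA took 14.3% and 11.5% in 10E12 replicates 1 and 3. Without 10E12 replicate 1, 1 gene was called in whole brain, and none without 56F03 replicate 2 or without 10E12 replicate 3. The part of depth and ribosomal RNA in the lack of whole brain calls was not tested.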

Other observations

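Some genes, chosen after their values were seen, were at 0 in every library of a line, whatever the age or tissue. CG15696 and Reepl1 had no counts in any of the 12 libraries of 56F03 flies, and were detected in 9 and 12 of the 12 libraries of 10E12 flies. AttD, an antimicrobial peptide gene, had no counts in the 12 libraries of 10E12 flies and was detected in 6 of 12 of 56F03 flies. Antimicrobial peptide genes in sum were at 20.8, 38 and 926 CPM in old sorted 56F03 cells and at 146, 145 and 36.4 CPM in old sorted 10E12 cells, so replicate 3 of 56F03 stood far above the rest.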
